A study of Mus musculus with 12 samples.

Results

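Vwf, Thbd, Tfpi, Plat, Nos3, Edn1, Klf2 and Klf4 are 8 of the 37620 genes counted in bone cells selected for endomucin and labelled bone endothelial cells (BECs), named here as a set because they act in haemostasis and in the control of vascular tone, and all 8 symbols matched a counted gene. The libraries came from mice of the c57/Bl6 strain, with no transgene or treatment named in the labels, and fell into 4 groups of 3, namely females and males of 2 weeks (young) and of 65 weeks (aged). The cells were taken fresh from the tibia per the labels and were purified by their surface endomucin, which the study's methods describe as a selection on antibody-coated magnetic beads after crushing and collagenase digestion of the bones. Those methods name femurs as well as tibiae. The methods also state that, in each set, the samples with the best RNA quality went on to sequencing, and neither source says whether a library is 1 animal or a pool. The design compared the sexes at each age, and the ages within each sex.

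Endothelium keeps blood fluid and sets vessel calibre. On the haemostatic side, von Willebrand factor tethers platelets and carries factor VIII, whereas thrombomodulin (Thbd), tissue factor pathway inhibitor (Tfpi) and tissue plasminogen activator (Plat) restrain coagulation or dissolve clots. On the side of tone, endothelial nitric oxide synthase (Nos3) relaxes smooth muscle and endothelin-1 (Edn1) contracts it. Klf2 and Klf4 encode zinc finger transcription factors that laminar flow raises in endothelium, where they are known to increase Nos3 and Thbd and to lower Edn1, and both are also made in blood cells, Klf2 in resting lymphocytes and Klf4 in monocytes.

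The promoters of the flow-regulated pair, of Edn1 and of Tfpi are shown because Klf2 and Klf4 rose or were not called between ages where Edn1 and Tfpi fell. Each window runs from 250 bases before to 50 bases after an annotated start and was taken from RefSeq on build GRCm38.p6; RefSeq windows were found for 4 of the 8 members, and Vwf, Thbd, Plat and Nos3 had none in the table used. The sequences read 5′ to 3′ along the gene. Capitals mark matches, on either strand, to 6 motifs: CACCC, which Kruppel-like factors bind, the GC box GGGCGG, the GATA word AGATAA, the AP-1 word TGANTCA, the shear stress word GAGACC, and the MEF2 motif.
Klf2, chr8:72318812-72319111, plus strand: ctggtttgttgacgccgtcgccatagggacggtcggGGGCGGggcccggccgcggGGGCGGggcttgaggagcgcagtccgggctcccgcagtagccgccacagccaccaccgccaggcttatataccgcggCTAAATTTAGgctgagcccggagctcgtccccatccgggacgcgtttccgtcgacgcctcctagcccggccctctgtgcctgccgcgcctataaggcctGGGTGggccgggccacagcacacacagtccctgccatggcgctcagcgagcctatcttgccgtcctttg
Klf4, chr4:55532426-55532725, minus strand: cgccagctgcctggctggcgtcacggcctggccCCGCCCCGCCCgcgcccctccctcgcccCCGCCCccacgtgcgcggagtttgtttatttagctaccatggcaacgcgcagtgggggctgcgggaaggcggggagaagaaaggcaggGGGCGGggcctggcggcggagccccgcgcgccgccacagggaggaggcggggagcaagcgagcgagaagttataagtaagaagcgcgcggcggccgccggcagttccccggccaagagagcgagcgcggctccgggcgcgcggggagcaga
Edn1, chr13:42301226-42301525, plus strand: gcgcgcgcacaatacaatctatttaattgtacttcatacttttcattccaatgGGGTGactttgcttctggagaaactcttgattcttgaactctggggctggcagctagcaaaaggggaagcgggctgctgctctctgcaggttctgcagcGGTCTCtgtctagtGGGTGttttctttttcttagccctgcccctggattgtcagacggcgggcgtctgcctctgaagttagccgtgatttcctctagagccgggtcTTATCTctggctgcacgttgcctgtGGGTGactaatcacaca
Tfpi, the upstream one of its 2 annotated starts, chr2:84476710-84477009, minus strand: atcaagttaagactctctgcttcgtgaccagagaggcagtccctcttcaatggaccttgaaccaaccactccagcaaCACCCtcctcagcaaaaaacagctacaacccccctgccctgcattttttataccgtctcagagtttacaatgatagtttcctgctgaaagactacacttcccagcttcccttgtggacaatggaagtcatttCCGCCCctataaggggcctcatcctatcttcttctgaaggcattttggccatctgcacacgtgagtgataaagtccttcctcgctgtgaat
The Klf2 window held 69.3% G and C and the Klf4 window 74.3%, against 51.3% for Edn1, 48.0% for Tfpi and a median of 52.7% over the 32851 windows of the table. GGGCGG occurred at 4 places in the Klf4 window, with the matches at -217 and -212 sharing a base, and at 2 places in the Klf2 window; 35.7% of all windows held it. The Klf2 window also held a MEF2 match at -118, a motif present in 3.2% of all windows and the kind of site on which flow signalling through Mapk7 is known to act. Edn1 carried CACCC at 3 places, a word found in 57.5% of all windows, together with AGATAA at 9 bases past the start (11.2% of all windows) and GAGACC at -98 (16.4%). CACCC also occurred in the Klf2 window at -19 and in the Tfpi window at -173. The Tfpi window held GGGCGG as well, at -41. None of the 4 windows held TGANTCA, which occurred in 7.8% of all windows. These matches describe letters in the windows and are not evidence of binding.

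The libraries held 26044743 to 44569600 counts each, and the aged males were the shallowest at 26044743 to 27323682. Levels are given in CPM, each count being scaled to a library total of 1000000. Emcn, which encodes the endomucin used for purification, averaged 147 ± 32.8 and 197 ± 38.0 CPM in young females and males, and 5.004 ± 2.10 and 5.64 ± 0.971 CPM in the aged groups (SD, n = 3 each). The 14 genes listed as endothelial markers all had counts in every group, and all 14 were lower at 65 weeks in both sexes. Their summed level was 2756 to 4745 CPM in young and 198 to 252 CPM in aged females, and 4016 to 5063 CPM in young and 158 to 209.8 CPM in aged males. That was 17.1-fold lower with age in females and 26.03-fold lower in males. In the same aged libraries 9 neutrophil markers summed to 11557 to 25094 CPM and 7 erythroid markers to 15530 to 24945 CPM, so the markers of the aged libraries go against the endothelial label, which is used here only as the name of the selected cells. Erythroid sums were as high at 2 weeks, at 15069 to 28189 CPM. Neutrophil sums at 2 weeks were 3829 to 6020 CPM, monocyte and macrophage sums 3439 to 4265 CPM, and osteoblast sums 3031 to 4513 CPM. These lay near the endothelial sums of that age, so the markers do not show the 2-week libraries to be endothelial alone. The lists differ in length and in the abundance of their genes, so the sums do not measure the share of each cell type. In young females Col1a1 alone averaged 3211 CPM, where the whole osteoblast list averaged 3711 CPM. In bulk RNA, fewer cells of a type and less RNA per cell cannot be told apart. All 12 megakaryocyte and platelet markers were lower at 65 weeks in both sexes, with sums 7.02-fold lower in females and 10.1-fold lower in males. Sums of 11 monocyte and macrophage markers were 2.29-fold and 2.14-fold higher, those of 9 neutrophil markers 2.47-fold and 5.66-fold higher, and those of 8 B cell markers 3.02-fold and 2.92-fold higher, in females and males respectively. Lyz2 alone gave much of the monocyte and macrophage sums. In females it averaged 2069 CPM of 3770 young and 5185 CPM of 8624 aged. In males it averaged 1695 CPM of 3873 young and 5255 CPM of 8287 aged. The medians of those 11 genes were log2 0.945 and 0.626. The sums carry no test. By gene, calls were made at an adjusted p under 0.05 in the edgeR test given below. In females and males, 11 and 7 of the 11 monocyte and macrophage and 8 and 9 of the 9 neutrophil markers were called higher. So were 6 and 6 of the 8 B cell, 8 and 7 of the 8 T and NK cell and 1 and 0 of the 7 erythroid markers. Over all genes tested, 30.2% and 27.0% were called higher. The erythroid medians were log2 0.311 and 0.415. The 8 osteoblast, 7 chondrocyte and 6 mural cell markers tested were all called lower in both sexes. So were the 14 endothelial and the 12 megakaryocyte and platelet markers. Over all genes tested, 29.5% and 28.5% were called lower. Col10a1 was at 0 counts in aged females and Col9a1 at 0 in aged males. Osteoblast sums were 31.9-fold and 31.6-fold lower, and chondrocyte sums 54.0-fold and 67.7-fold lower, in females and males. The endothelial sums were thus not the ones that fell most. Replicate 3 of the aged males stood apart. It held 117 counts of Xist (4.49 CPM, or 3.35% of the aged female mean). Its B cell sum was 1508 CPM against 491 and 378 in the other aged males, and its neutrophil sum was 16903 CPM against 24973 and 25094. Sex comparisons at 65 weeks are therefore given with and without it. Replicate 3 of the young females held 12 counts of the Y-linked Ddx3y (0.313 CPM).

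Scaled to the length of the canonical transcript as well as to the library total (RPKM), Tfpi led the set at 2 weeks with 185 ± 56.3 in females and 248 ± 25.0 in males (SD, n = 3), and Thbd was next with 77.6 ± 18.7 and 101 ± 13.8. Vwf and Klf2 followed with ranges that overlapped in each sex. Klf4 came next, at 10.05 ± 0.632 RPKM in females and 8.61 ± 1.87 in males, and its range overlapped that of Nos3 in males only. Nos3 lay above Plat in both sexes, and Edn1 was last at 0.365 ± 0.0630 RPKM in females and 0.558 ± 0.155 in males. At 65 weeks the order was different, with Klf2 first at 76.3 ± 8.04 RPKM in females and 60.1 ± 26.3 in males and clear of the second gene in both. In aged females Thbd and Klf4 overlapped at the next place, Tfpi overlapped Vwf, and Plat, Nos3 and Edn1 overlapped at the bottom, at 0.141, 0.130 and 0.0396 RPKM. In aged males Tfpi was second, Thbd overlapped Klf4 and Klf4 overlapped Vwf, followed by Nos3 at 0.156 RPKM and then by Edn1 and Plat, which overlapped. Lengths taken over all merged exons, a choice made after the data were seen, lowered the 2-week RPKM of Vwf, Thbd, Tfpi and Plat by more than their spread (Tfpi in young females to 64.7 RPKM), left Tfpi first at 2 weeks and Klf2 first at 65 weeks, and placed Klf4 second in both 65-week groups.

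**Figure D1:**
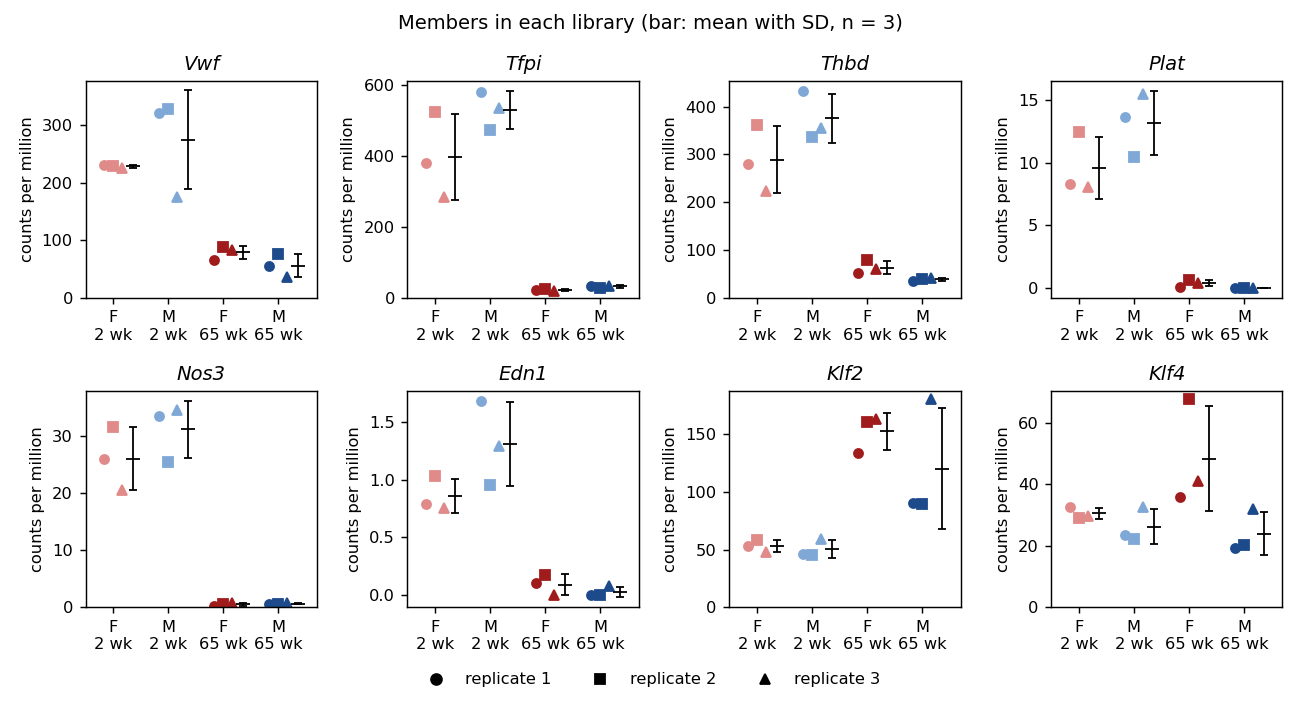
Level in CPM (vertical axis, linear, each panel with its own range) of the 8 genes in each of the 12 libraries, grouped by sex (F, M) and age in weeks; symbols are replicates and bars are the mean with SD (n = 3). Vwf, Tfpi, Thbd, Plat, Nos3 and Edn1 lie lower in every 65-week library than in any 2-week library of the same sex, Klf2 lies higher, and the male Klf4 values overlap between ages.

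The comparison of ages within each sex showed the 6 haemostatic and vasoactive genes lower at 65 weeks in both sexes, by 2.64-fold (Vwf, females) to 44.2-fold (Nos3, males) among genes with enough counts for a ratio, and Plat had no count at all in aged males. Klf2 was higher at 65 weeks in both sexes, and Klf4 was higher in females and not called in males. In females 2 of the 8 members were called higher and 6 lower, at an adjusted p under 0.05 in edgeR's quasi-likelihood test, where 30.2% of the 15120 genes tested were called higher and 29.5% lower. In males 1 of the 8 was called higher and 6 lower, against 27.0% and 28.5% of 14959 genes. The median log2 fold change of the members was -2.51 in females and -3.56 in males, beside medians of 0.006 and 0.008 over all genes tested. The fold changes below are from that test. Each standard error was derived as the absolute log2 fold change divided by the square root of the F statistic. Such a value is unsteady where the fold change is near 0.

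Vwf (ENSMUSG00000001930; chromosome 6, 125523737 to 125663642, plus strand, build GRCm39) encodes the multimeric adhesion protein that endothelium stores in Weibel-Palade bodies and megakaryocytes store in platelet granules. In young females the 3 libraries held 230.2, 229.6 and 225 CPM. The young males held 321, 328 and 175.5 CPM, so that replicate 3 fell below every female library while the other two were above them. At 65 weeks the females held 65.5, 87.5 and 83.0 CPM and the males 54.8, 76.6 and 36.5 CPM, with no overlap between ages in either sex. The log2 fold change with age was -1.40 ± 0.116 in females (adjusted p = 2.9e-05) and -2.17 ± 0.341 in males (adjusted p = 0.00119), which are 2.64-fold and 4.51-fold lower. Vwf moved with the megakaryocyte markers between ages and, except in young females, with nearly the same order among the libraries of a group. The summed megakaryocyte level was 3296, 3172 and 1947 CPM in the young males, with replicate 3 lowest as for Vwf, and 244, 430.1 and 157 CPM in the aged males, in the same order as Vwf. Relative to that sum, Vwf was 8.80 to 10.7 counts per 100 megakaryocyte counts in young females, 9.01 to 10.3 in young males, 22.3 to 28.3 in aged females and 17.8 to 23.3 in aged males. The part of the megakaryocyte markers in the Vwf difference was not tested.

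**Figure D2:**
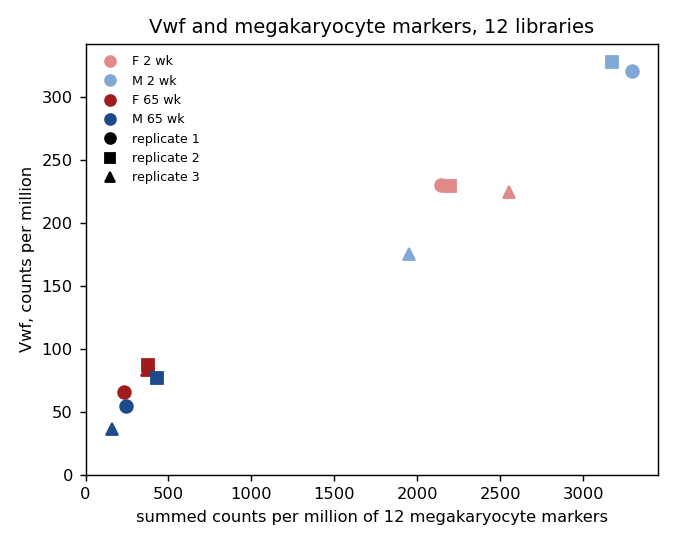
Vwf (vertical axis, CPM) against the summed level of 12 megakaryocyte and platelet markers (horizontal axis, CPM) in the 12 libraries; colours are groups and symbols replicates. The 2-week libraries lie at sums of 1947 to 3296 CPM and the 65-week libraries at 157 to 430.1 CPM, and replicate 3 is the lowest point of each male group on both axes.

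Thbd (ENSMUSG00000074743; chromosome 2, 148216045 to 148250201, minus strand, GRCm39) encodes thrombomodulin, the surface receptor on which thrombin activates protein C. Its level was 280.4, 362 and 224 CPM in young females and 434, 337 and 356 CPM in young males. At 65 weeks it was 51.6, 78.3 and 59.5 CPM in females and 35.2, 38.2 and 41.8 CPM in males. The ages did not overlap, and at 65 weeks all 3 male libraries lay below all 3 female libraries. The log2 fold change with age was -2.05 ± 0.202 in females (adjusted p = 7.06e-05) and -3.18 ± 0.131 in males (adjusted p = 1.75e-06), which are 4.15-fold and 9.04-fold lower. Sstr4, a somatostatin receptor gene that overlaps Thbd on the opposite strand, was at 0.422 CPM in young females and 3.24 CPM in aged females, and whether counting used strand is not stated.

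Tfpi (ENSMUSG00000027082; chromosome 2, 84263195 to 84307164, minus strand, GRCm39) encodes the inhibitor of factor Xa and of the tissue factor complex. The young libraries held 382, 525 and 285 CPM (females) and 581, 474 and 536 CPM (males). The aged libraries held 22.6, 25.0 and 18.6 CPM (females) and 34.3, 26.4 and 34.2 CPM (males). The lowest 2-week library was thus above every 65-week library by more than the whole spread at 65 weeks. Tfpi was 16.3-fold lower with age in females (log2 -4.03 ± 0.227, adjusted p = 5.16e-06) and 15.5-fold lower in males (log2 -3.95 ± 0.152, adjusted p = 1.46e-06). Among the haemostatic members it was the most abundant per kilobase at 2 weeks, and in aged females it lay below Thbd.

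Plat (ENSMUSG00000031538; chromosome 8, 23247709 to 23272871, plus strand, GRCm39) encodes the activator that turns plasminogen into plasmin. The 2-week libraries held 8.28, 12.5 and 8.04 CPM in females and 13.7, 10.4 and 15.5 CPM in males. The aged females held 0.103, 0.616 and 0.375 CPM, or 3, 21 and 11 counts, and the aged males held 0 counts in each of the 3 libraries. In females the log2 fold change was -4.53 ± 0.441 (adjusted p = 6.62e-05), a 23.1-fold lower level. This fall moved to 36.0-fold without replicate 2 of the aged females and to 17.2-fold without their replicate 1. In males Plat was called lower (adjusted p = 2.26e-05) and was at least 118-fold lower, taking 3 counts in each 65-week library, a mean of 0.112 CPM, as the level that a count of 0 allows. Such a limit covers counting error only.

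Nos3 (ENSMUSG00000028978; chromosome 5, 24569787 to 24589475, plus strand, GRCm39) encodes the endothelial nitric oxide synthase. Its 2-week levels were 26.1, 31.6 and 20.6 CPM in females and 33.6, 25.4 and 34.6 CPM in males. At 65 weeks 9, 19 and 22 counts remained in the female libraries (0.310, 0.557 and 0.751 CPM) and 17, 17 and 18 in the male libraries (0.622, 0.630 and 0.691 CPM). Every 65-week library was therefore under 1 CPM, and every 2-week library above 20 CPM. The fold differences, 43.5-fold lower in females (log2 -5.44 ± 0.277, adjusted p = 3.5e-06) and 44.2-fold lower in males (log2 -5.47 ± 0.196, adjusted p = 1.25e-06), were the largest of the members that kept 10 or more counts per group. Atg9b, which overlaps Nos3 on the opposite strand, was at 0.632 and 0.702 CPM at 2 weeks and 0.297 and 0.334 CPM at 65 weeks in females and males, so at 65 weeks the pair lay close together and reads from the shared stretch could not be told apart if strand was not used.

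Edn1 (ENSMUSG00000021367; chromosome 13, 42446301 to 42461466, plus strand, GRCm39) encodes the vasoconstrictor peptide endothelin-1 and was the member with the fewest counts. The young females held 0.790, 1.03 and 0.757 CPM (29, 36 and 29 counts) and the young males 1.68, 0.957 and 1.29 CPM (75, 40 and 47 counts). At 65 weeks the female libraries held 3, 6 and 0 counts and the male libraries 0, 0 and 2. The 65-week values did not reach the 2-week values in either sex. In females the log2 fold change was -2.97 ± 0.666 (adjusted p = 0.00542), or 7.84-fold lower. This fall became 14.3-fold without replicate 2 of the aged females, the library with 6 counts, and 5.38-fold without replicate 3, the library with 0. In males Edn1 was called lower (adjusted p = 0.000772), and the ratio of summed counts was 53.1, with an exact 95% counting interval of 14.5 to 442 from 162 counts against 2. Both of these counts came from replicate 3, and without it the aged males were at 0, which gives a level at least 11.9-fold lower, taking 3 counts per library as the limit. The same ratio in females was 8.78, with an interval of 4.43 to 19.8 from 94 counts against 9.

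Klf2 (ENSMUSG00000055148; chromosome 8, 73072726 to 73075502, plus strand, GRCm39), the flow-induced factor whose promoter window held the MEF2 match above, went the other way. It was at 53.2, 57.9 and 48.0 CPM in young females and 46.4, 45.5 and 59.0 CPM in young males. At 65 weeks it was at 134, 161 and 163 CPM in females and 90.4, 89.2 and 181 CPM in males, above every 2-week library of the same sex. The rise was 3.16-fold in females (log2 1.66 ± 0.105, adjusted p = 8.43e-06) and 2.56-fold in males (log2 1.36 ± 0.258, adjusted p = 0.00304). Replicate 3, which was set apart above by its B cell sum, was the high 65-week male library, and without it the male rise was 1.95-fold (log2 0.96 ± 0.124, adjusted p = 0.000372). Eps15l1, which overlaps Klf2 on the opposite strand, was at 47.1 and 42.4 CPM at 2 weeks and 44.2 and 41.2 CPM at 65 weeks in females and males.

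Klf4 (ENSMUSG00000003032; chromosome 4, 55527139 to 55532528, minus strand, GRCm39) held 32.7, 29.2 and 29.6 CPM in young females and 35.9, 67.8 and 41.0 CPM in aged females. The male libraries held 23.6, 22.1 and 32.6 CPM at 2 weeks and 19.4, 20.3 and 31.9 CPM at 65 weeks, so the ages overlapped in males and not in females. In females Klf4 rose 1.74-fold (log2 0.80 ± 0.223, adjusted p = 0.0148). This value leaned on replicate 2 of the aged females, without which the rise was 1.38-fold (log2 0.46 ± 0.110, adjusted p = 0.0106). In males the log2 fold change was -0.02 ± 0.212 (adjusted p = 0.933).

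**Figure D3:**
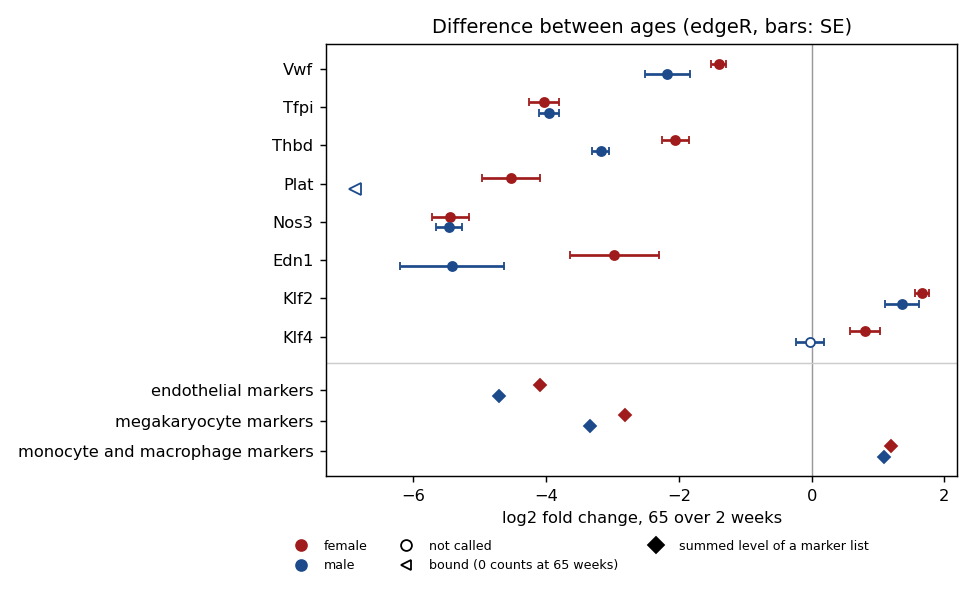
Log2 fold change of 65 over 2 weeks (horizontal axis) for the 8 genes in females (red) and males (blue) with standard errors, filled where called; the open triangle is the bound for Plat in males (log2 -6.88) and the diamonds are summed levels of 3 marker lists. Nos3 lies at -5.44 and -5.47, beyond the endothelial diamonds, while Vwf at -1.40 and -2.17 lies nearer to 0 than the megakaryocyte ones, and Klf2 is positive in both sexes.

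Set against the summed counts of the 14 endothelial markers in the same library, as a description with no test, the members separated further. Tfpi kept nearly the same proportion in females, with 10.6 ± 0.441 (young) and 10.1 ± 0.789 (aged) per 100 endothelial counts, whereas aged males held 17.7 ± 2.08 and young males 11.4 ± 0.473 (SD, n = 3). Vwf went from 6.39 ± 1.67 to 36.0 ± 5.24 per 100 in females and from 6.02 ± 2.31 to 32.7 ± 15.6 in males. Thbd went from 7.77 ± 0.307 to 28.6 ± 3.30 in females and from 8.06 ± 0.729 to 21.6 ± 2.29 in males. Both were therefore reduced less than the endothelial sum. Nos3 was reduced more than that sum, from 0.705 ± 0.0413 to 0.250 ± 0.117 in females and from 0.666 ± 0.0345 to 0.364 ± 0.0346 in males. The 14 markers taken singly fell by log2 -1.47 (Erg) to -5.72 in females and -1.60 (Erg) to -5.74 in males. Those with a larger fitted fall than Nos3 were Cdh5 and Flt4 in females and Cdh5 in males. Plat was at 0.259 ± 0.0348 and 0.161 ± 0.1002 in young and aged females, whose ranges overlapped, and at 0.281 ± 0.0287 and 0 in males. Edn1 was at 0.0212 to 0.0275 per 100 in young females and 0 to 0.0698 in aged females, and at 0.0238 to 0.0332 in young males and 0 to 0.0366 in aged males, so its ages overlapped in both sexes on this scale. Klf2 stood at 1.46 ± 0.263 and 1.08 ± 0.148 per 100 endothelial counts at 2 weeks and 70.1 ± 10.4 and 65.2 ± 18.2 at 65 weeks, and Klf4 at 0.856 ± 0.230 and 0.559 ± 0.0978 against 21.6 ± 4.84 and 13.1 ± 1.93, in females and males. The endothelial sum itself was 17.1-fold and 26.03-fold lower at 65 weeks, whereas Klf2 was 3.16-fold and 2.56-fold higher. Both factors are also made in blood cells, so these ratios are not levels per endothelial cell. The ratios of the other members, Thbd and Vwf among them, are not such levels either, because the libraries held markers of other cell types.

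**Figure D4:**
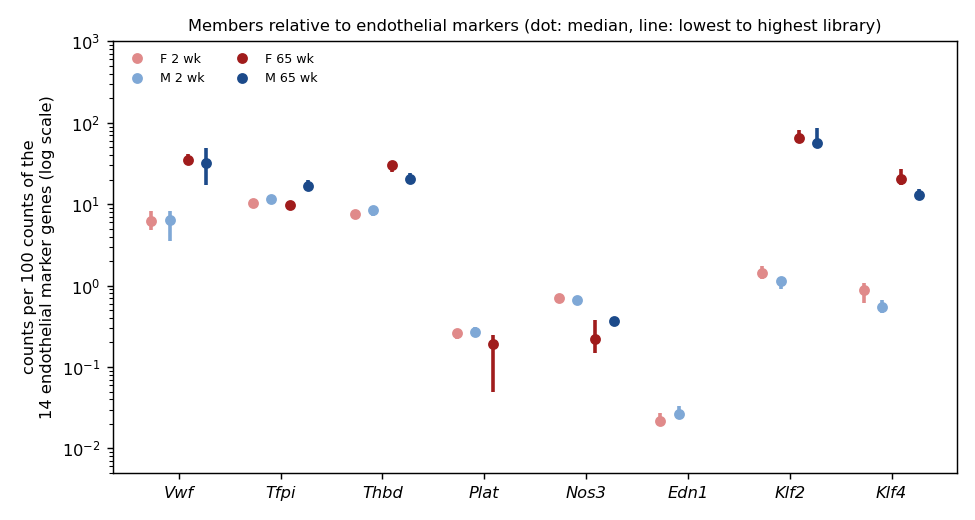
Counts of each gene per 100 summed counts of the 14 endothelial markers in the same library (vertical axis, log scale), by group; dots are medians and lines run from the lowest to the highest of 3 libraries, and Edn1 at 65 weeks and Plat in aged males are left out because libraries at 0 cannot be drawn on a log axis. Klf2 moves from 1.08 and 1.46 to 65.2 and 70.1 per 100 on average, and Nos3 moves down. Tfpi lies at 10.3 to 11.1 in young and 9.35 to 10.9 in aged females. In males it lies at 10.9 to 11.8 in young and 16.3 to 20.1 in aged libraries. The marker sum itself was 17.1-fold and 26.03-fold lower at 65 weeks in females and males.

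Between males and females at 2 weeks, no member was called (0 of 8), where 0.0332% of the 15081 genes tested were called (5 genes). Log2 differences of male over female ran from -0.25 (Klf4) to 0.60 (Edn1), with adjusted p of 0.277 to 0.641, and the median was 0.31. Edn1 and Plat were under 0.05 before the edgeR p-values were adjusted, as were 17.8% of all genes (adjusted p = 0.277 and 0.28), and DESeq2 called 0 of the 8. The lowest male and highest female values overlapped for Edn1 (0.957 and 1.03 CPM) as for Plat (10.4 and 12.5 CPM).

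Between males and females at 65 weeks, 0 of 6 members tested were called, and 0.042% of 14287 genes were (6 genes); Edn1 and Plat had too few counts in these 6 libraries to be tested. Thbd came nearest, with a log2 difference of -0.73 ± 0.156 (adjusted p = 0.173) and the 3 male libraries below the 3 female ones, and Klf4 was at -1.04 ± 0.262 (adjusted p = 0.22). Tfpi was higher in males by 0.51 ± 0.16 (adjusted p = 0.317), with its lowest male library at 26.4 CPM and its highest female library at 25.0 CPM. These 3 were under 0.05 before adjustment, as were 10.4% of all genes. The remaining differences were -0.50 for Vwf (adjusted p = 0.586), -0.37 for Klf2 (adjusted p = 0.673) and 0.25 for Nos3 (adjusted p = 0.922). Without replicate 3 of the aged males, 3 members were called lower in males, where 3.68% of 14700 genes were: Klf2 (log2 -0.75, adjusted p = 0.0126), Klf4 (log2 -1.27, adjusted p = 0.0324) and Thbd (log2 -0.77, adjusted p = 0.0435). DESeq2 on all 6 libraries called Thbd (adjusted p = 0.00506) and Klf4 (adjusted p = 0.00904), and 2.79% of all genes. A model over all 12 libraries called Plat, which had 3, 21 and 11 counts in the females and none in the males (adjusted p = 0.0435). Plat was tested in 6 alternative edgeR fits and called in 1 of them, with adjusted p up to 0.704. That model also called many more genes in all than the main fit, as given in the closing section.

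**Figure D5:**
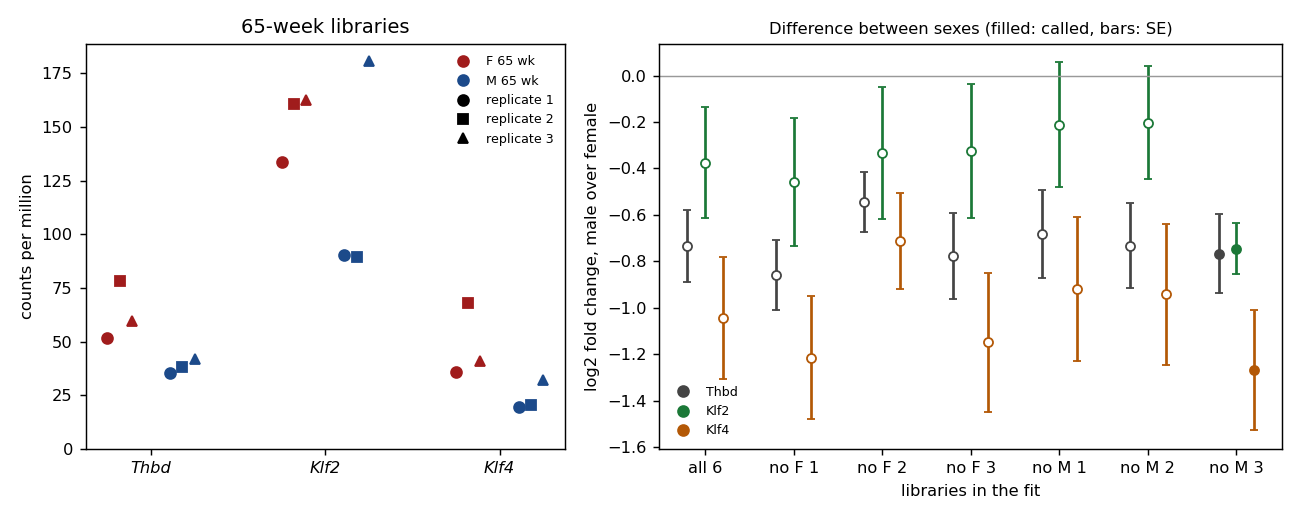
Left, CPM (vertical axis) of Thbd, Klf2 and Klf4 in the 65-week libraries of females (red) and males (blue), with symbols for replicates; right, their log2 difference of male over female with standard error, for all 6 libraries and with each library left out in turn (no M 3 leaves out male replicate 3), filled where called. Replicate 3 is the high male point for Klf2 at 181 CPM, and among the 7 fits drawn the 3 genes are called in the fit without it, at -0.75 for Klf2, -1.27 for Klf4 and -0.77 for Thbd.

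Whether the difference between ages itself differed between males and females was asked of all 12 libraries with an interaction term. None of the 8 members was called (0 of 8), against 0.00635% of 15747 genes (1 gene), and 3 members passed before adjustment, as did 11.9% of all genes. These were Plat (adjusted p = 0.127), Thbd, whose log2 interaction of -1.12 ± 0.261 is a larger fall in males (adjusted p = 0.141), and Klf4 (log2 interaction -0.82 ± 0.335, adjusted p = 0.362). The call of Klf4 in females and not in males is thus not shown to be a difference between the sexes. DESeq2 called Plat (adjusted p = 0.000679) and Thbd (adjusted p = 0.00816), as 2.5% of all genes, and edgeR without replicate 3 of the aged males called the same pair (adjusted p = 0.0388 and 0.0394), as 4.66% of 16089 genes. For Vwf the interaction was -0.77 ± 0.382 (adjusted p = 0.45), for Edn1 -2.44 ± 1.28 (adjusted p = 0.476), and for Klf2 -0.30 ± 0.301 (adjusted p = 0.716), whereas Tfpi (0.08 ± 0.280) and Nos3 (-0.02 ± 0.422) lay near 0. The Edn1 value was set by few counts, being -5.46 without replicate 3 of the aged males and -1.58 without replicate 2 of the aged females, and was called in neither.

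The other genes of these pathways were read from 9 lists of 107 genes, of which 97 were tested between ages in females and 96 in males. Each list is given by its calls and its median log2 fold change, to be read beside the shares called and the medians of 0.006 and 0.008 over all genes. Of 12 anticoagulant and fibrinolytic genes tested, 3 rose and 9 fell in females and 1 rose and 9 fell in males (medians -1.51 and -1.59). Serpine2, which encodes a thrombin inhibitor, fell in females (627 ± 125 CPM young, 92.0 ± 32.2 CPM aged) and in males (775 ± 45.2 CPM young, 150.3 ± 27.1 CPM aged). Tfpi2, a relative of Tfpi, fell in both sexes (22.8 ± 7.94 to 0.506 ± 0.246 CPM and 30.5 ± 4.03 to 1.14 ± 0.481 CPM). The urokinase receptor gene Plaur rose in females (22.7 ± 2.02 CPM young, 38.4 ± 4.72 CPM aged) and in males (18.2 ± 1.36 CPM young, 58.6 ± 9.60 CPM aged). Its log2 fold changes were 0.89 and 1.81 (adjusted p = 0.000396 and 6.11e-05).

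Procoagulant and platelet adhesion genes counted 2 higher and 9 lower of 13 in females and 1 higher and 9 lower of 11 in males (medians -1.32 and -2.65). F8 encodes the factor VIII that von Willebrand factor carries. It fell in females (105 ± 23.8 CPM young, 5.45 ± 1.18 CPM aged) and in males (129 ± 16.9 CPM young, 5.77 ± 0.790 CPM aged). Mmrn2, an endothelial matrix protein, fell in both sexes (225 ± 59.6 to 6.41 ± 2.42 CPM and 276 ± 32.6 to 6.67 ± 1.27 CPM).

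Weibel-Palade body genes encode proteins carried in these bodies along with von Willebrand factor, such as Selp and Angpt2, or act in their packaging or release. Of 10 tested, 2 rose and 4 fell in each sex (medians -0.11 and -0.45). Selp, the P-selectin of these bodies and of platelet granules, fell in females (141 ± 22.9 CPM young, 17.1 ± 1.86 CPM aged) and in males (175.5 ± 11.7 CPM young, 11.6 ± 1.79 CPM aged). Angpt2 fell in both sexes (12.04 ± 2.77 to 1.40 ± 0.353 CPM and 14.1 ± 0.705 to 1.62 ± 0.788 CPM). The small GTPase genes Rab27a and Rab3d, which also serve granules of blood cells, rose. Their log2 fold changes were 0.54 and 0.44 in females (adjusted p = 0.00955 and 0.00768) and 1.10 and 1.09 in males (adjusted p = 0.000562 and 0.000242). Neutrophil marker sums were higher alongside, by 2.47-fold and 5.66-fold, and their part was not tested.

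In the endothelin pathway, all 4 genes tested fell in both sexes (medians -3.04 and -2.96). Edn3 was too low to test and Edn2 had no count. The receptor gene Ednrb fell in females (25.0 ± 5.07 CPM young, 0.654 ± 0.556 CPM aged) and in males (37.3 ± 6.05 CPM young, 0.750 ± 0.318 CPM aged), as did Ednra (25.8 ± 5.81 to 1.64 ± 0.207 CPM and 32.0 ± 5.84 to 2.95 ± 1.02 CPM). Of 10 nitric oxide pathway genes, 2 rose and 7 fell in females and 1 rose and 7 fell in males (medians -2.56 and -3.05). The product of Cav1 holds endothelial nitric oxide synthase inactive, and Cav1 fell in females (40.4 ± 9.51 CPM young, 2.76 ± 0.239 CPM aged) and in males (61.1 ± 13.3 CPM young, 2.41 ± 1.69 CPM aged). Ddah1, which clears a natural inhibitor of the synthase, fell in both sexes (7.01 ± 2.32 to 0.0587 ± 0.102 CPM and 8.32 ± 2.09 to 0.247 ± 0.0885 CPM). Arg2, an arginase that draws on the same substrate, rose in females (4.32 ± 1.14 CPM young, 13.02 ± 5.39 CPM aged) and in males (2.94 ± 0.423 CPM young, 21.7 ± 5.90 CPM aged). Its log2 fold changes were 1.73 and 3.00 (adjusted p = 0.00183 and 5.57e-05).

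Genes of prostanoids, angiotensin and other agents of tone counted 2 higher and 7 lower of 11 in females and 2 higher and 8 lower of 12 in males (medians -0.70 and -1.26). Ptgis, the prostacyclin synthase gene, fell in females (14.7 ± 2.54 CPM young, 0.319 ± 0.157 CPM aged) and in males (16.3 ± 1.51 CPM young, 0.845 ± 0.3999 CPM aged). Ramp2, a subunit of the adrenomedullin receptor, fell in both sexes (63.0 ± 15.5 to 2.18 ± 0.643 CPM and 81.4 ± 11.4 to 2.21 ± 0.764 CPM). Ace, the angiotensin-converting enzyme gene, rose in females (41.8 ± 5.07 CPM young, 369 ± 108 CPM aged; log2 3.28 ± 0.222, adjusted p = 1.16e-05). The male values were 36.6 ± 7.07 CPM young and 141 ± 37.1 CPM aged (log2 2.05 ± 0.197, adjusted p = 8.92e-05). The summed CPM of this list, Ace included, was 1.19-fold higher in aged females although the median log2 fold change was below 0. Agtr1a, an angiotensin receptor gene, rose by log2 0.65 and 1.05 (adjusted p = 0.0171 and 0.00122). Ace is also made by macrophages, whose marker sums were 2.29-fold and 2.14-fold higher (medians by gene log2 0.945 and 0.626), and their part was not tested.

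Around Klf2 and Klf4, 5 of 13 other Kruppel-like factor genes rose and 3 fell in females, and 6 rose and 4 fell in males (medians 0.205 and 0.284). Klf13 rose in females (159 ± 4.75 CPM young, 337 ± 47.0 CPM aged) and in males (139 ± 2.98 CPM young, 251 ± 35.1 CPM aged). Klf5 rose in both sexes (3.86 ± 1.08 to 7.22 ± 0.365 CPM and 2.85 ± 0.503 to 9.57 ± 1.55 CPM), and Klf12 (log2 -1.10 and -1.30) and Klf7 (log2 -0.28 and -0.50) fell. Of 11 genes of flow sensing upstream of Klf2 and Klf4, 4 rose and 4 fell in females and 2 rose and 4 fell in males (medians 0.24 and -0.19). Map3k3, the kinase at the head of the Mapk7 cascade, and Ccm2, its restraint, rose (log2 0.54 and 0.66 in females, 0.44 and 0.69 in males). The mechanosensitive channel gene Piezo1 (log2 -0.88 and -0.76) and Heg1 (log2 -0.84 and -1.73) fell. In females the median of this list was positive while its summed level was 1.09-fold lower.

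Immediate early and heat shock genes, which cell handling can raise, were read because Klf2 and Klf4 are themselves early response genes. Of 13 tested, 9 rose and 1 fell in females, and 10 rose and 1 fell in males (medians 0.94 and 1.19). Their summed level was 324 to 372 CPM in young females, 571 to 652 CPM in aged females, 321 to 358 CPM in young males and 584 to 653 CPM in aged males. Nr4a1 rose in females (14.7 ± 1.31 CPM young, 88.2 ± 26.02 CPM aged) and in males (12.1 ± 4.27 CPM young, 35.3 ± 10.6 CPM aged). Atf3 rose in both sexes (4.51 ± 0.562 to 13.5 ± 2.18 CPM and 3.23 ± 0.322 to 17.7 ± 2.64 CPM), and Egr1 fell in both (23.6 ± 3.67 to 9.21 ± 1.36 CPM and 21.9 ± 1.80 to 9.67 ± 5.43 CPM). The B cell, neutrophil and monocyte marker sums given above were higher at 65 weeks as well. The part of either in the Klf2 rise was not tested.

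Over the 107 list genes, edgeR called none between males and females at 2 weeks and none at 65 weeks, and none for the interaction. Before adjustment 18 of 95 were under 0.05 at 2 weeks, beside 17.8% of all genes, 25 of 94 at 65 weeks, beside 10.4%, and 27 of 101 for the interaction, beside 11.9%. DESeq2 called 1, 9 and 7 of them, and 447, 398 and 394 of all genes.

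Across the 12 libraries, the protein-coding genes whose log2 CPM followed each member most closely among 11566 genes were named by Pearson's r. The libraries share their age groups, so that a gene with a large age difference in the member's direction scores high. For Vwf these were Gcsam, Pls1 and Kcnj5 (r = 0.989, 0.989 and 0.987). For Thbd they were Prkra, Flt1 and Crispld1 (r = 0.993 to 0.995), for Tfpi Tspan7, Mpdz and Cyp4b1 (r = 0.998 to 0.999), and for Plat Als2cl, Irx3 and Heyl (r = 0.995 to 0.996). Nos3 was matched by Pth1r, Fermt2 and Mmp13 (r = 0.998) and Edn1 by Zdhhc8, Dlg4 and Spry4 (r = 0.985 to 0.988). Klf2, which rose, was matched by Btg1, Gpr18 and Eapp (r = 0.989 to 0.991). Klf4 had no match as close, with Ip6k3, Ldlrad3 and Ifitm3 at r = 0.913, 0.901 and 0.898.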

How the data were processed

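RNA was measured in 12 libraries of endomucin-selected bone cells, in 4 groups of sex and age taken from the labels. The authors deposited raw gene counts for 37620 Ensembl gene IDs, of which 31052 matched GENCODE M39. The submitters' processing notes name TopHat2, HTSeq and mm9, whereas the study's methods describe STAR, featureCounts and GRCm39, so the aligner, annotation, use of strand and handling of multi-mapped reads behind the counts remain unsettled; the labels give polyA RNA and a total RNA kit.

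The test was the quasi-likelihood F test of edgeR (version 4.0.16, under R 4.3.3), after filterByExpr (minimum count 10) and TMM scaling, with Benjamini-Hochberg adjustment over all genes tested and a call at 0.05. It was two-sided and used the 6 libraries compared, or all 12 for the interaction. CPM and RPKM used library totals and GENCODE M39 canonical transcripts. DESeq2 1.42.0, other scalings, no filter, 1 model for all libraries, blocking on replicate number and the omission of each library in turn were alternatives. No 2 libraries of a group were alike (lowest chi-square per degree of freedom 26.6); the labels do not say that replicates were separate animals, so p-values measure the spread between these libraries, which may be technical.

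The members and the lists were chosen with earlier results of these data known. By the rule used, all members were named, with up to 2 genes per list that rose and 2 that fell most among those called in both sexes whose mean log2 CPM was 1 or more, and 3 protein-coding genes per member by Pearson's r.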

Additional observations from a re-analysis of the deposited data

How the results depend on the processing

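Age calls of the members held under every alternative run: 8 of 8 were called in females and 7 of 8 in males in all 13 fits of each sex, with the direction kept for each called member. Between the sexes at 65 weeks, where 0 of 6 were called, DESeq2 called 2, the model of all 12 libraries called 1, and leaving out single libraries gave 0 to 3, the 3 without replicate 3 of the 65-week males. For the interaction, with 0 of 8 called, DESeq2 called 2 and leaving out single libraries gave 0 to 2, the 2 again without that library. The cause was not tested. Signs turned only for values that were not called: Klf4 between ages in males ranged from -0.27 to 0.15 on leaving out single libraries, Nos3 between the sexes at 65 weeks from -0.024 to 0.55, and the interactions of Tfpi from -0.17 to 0.28 and of Nos3 from -0.28 to 0.27, or 0.000314 with library totals alone.

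Over all genes tested, DESeq2 called 447 between the sexes at 2 weeks (5 in edgeR; 8 in 1 model of 12 libraries), 398 at 65 weeks (6 in edgeR) and 394 for the interaction (1 in edgeR). At 65 weeks, testing without a filter called 105 genes, 1 model of 12 libraries 254 and library totals alone 10, and leaving out single libraries gave 5 to 830; without a filter the interaction called 7, and leaving out single libraries gave 0 to 750. Library totals alone shifted the median log2 fold change of all genes to -0.13 in females and -0.11 in males between ages, and the members' directions were kept.

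Replicate numbers were not shown to pair the libraries: deviations of same-numbered libraries correlated between -0.355 and 0.14, and best with their own number in at most 1 of 3 cases. With a replicate block, 8, 7, 0, 0 and 0 members were called (ages in females and males, sexes at 2 and 65 weeks, interaction), the numbers without it, and 8269, 7593, 5, 7 and 0 genes, against 9030, 8298, 5, 6 and 1. Depth limits Edn1 and Plat, which held at most 6 and 21 counts in any 65-week library, and Nos3, which held 9 to 22.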
